A study of Mus musculus with 6 samples.

Results

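The transcripts described here encode the machinery of DNA replication and S phase entry, in cultured mouse megakaryocytes, which shed platelets, with or without p45. The members are a list of 31 genes chosen by name, with earlier results of these data known. Of these, 30 were found on the array through their RefSeq accessions. Rrm2 was not matched in this way, which does not show that the array lacks it. All 30 passed the filter on dim probes and were tested among 18210 genes in all. The cells were primary cultures from C57BL/6 fetal livers taken at E13.5, of genotype p45-/- or WT (wild type). Nfe2 encodes p45, which pairs with a small Maf protein to form NF-E2, a transcription factor of megakaryocyte maturation. There were 3 p45-/- and 3 WT arrays, described as 3 independent experiments. The labels do not say how the p45 allele was disrupted, whether embryos were pooled or how far the megakaryocytes were purified, and their extraction protocol names whole embryos while the source field names cultured megakaryocytes.

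Before a cell can copy its DNA, the origin recognition complex, Cdc6 and Cdt1 load the hexameric Mcm2 to Mcm7 helicase onto replication origins, a step called licensing. Geminin, the product of Gmnn, blocks Cdt1 once S phase has begun, so that an origin fires only once per cycle. Cyclin E with its kinase, and E2F transcription factors released from the retinoblastoma protein, drive the entry into S phase. Mcm10 and the GINS complex then activate the helicase, polymerases copy the strands behind it, and enzymes of nucleotide synthesis feed the forks. Megakaryocytes are known for endomitosis: they repeat S phase without dividing and become polyploid, and cyclin E is needed for this in mice.

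Levels are given as log2 of the processed spot signal minus the array's 75th percentile, so a level of 0 is the signal that 75% of the probes stay below. Differences are p45-/- minus WT on this log2 scale, and levels of different genes are not compared, since probes differ in brightness. The 75th percentile itself ranged from 135 to 589 signal units in p45-/- and from 339 to 584 in WT. The lowest, on p45-/- array 1, belongs to an array that stood apart: its correlation with the others across genes was 0.782 to 0.884. All 10 megakaryocyte markers were well above background on all 6 arrays, with a median difference of -0.48 that hides a wide spread. Itga2b differed by -0.15 and Pf4 by 0.082, while Gp6, a collagen receptor of platelets, differed by -6.09. Gp6 read -2.48, 0.28 and -0.65 in p45-/- against 3.55, 6.04 and 5.84 in WT (limma adjusted p = 0.287, and 0.017 with the replicate number as a block). The Nfe2 probe differed by -0.17 (SE 0.57, limma adjusted p = 0.923), and its position relative to the disrupted part is not known, so it does not check the labels. Markers of other blood and liver cells also differed. The 10 erythroid markers tested were all higher in group mean (median 2.17, 7 of them well above background on all arrays), with summed levels of 115.5 to 996 on the p45-/- and 89.4 to 363.5 on the WT arrays, in units of the 75th percentile. The 7 hepatoblast and hepatocyte markers were all higher in group mean (median 1.19), with sums of 46.6 to 172 against 37.0 to 64.8. On p45-/- array 1, however, Alb, Afp, Apob, Ahsg and Fgb read below WT array 1, by -0.071 (Alb) to -0.97 (Fgb). Apoa1 and Apoh read above it, by 0.067 and 0.34. The 7 myeloid markers were all lower in group mean (median -0.81), with sums of 229.7 to 268 against 364 to 486. Mpo, Elane, Prtn3 and Ctsg differed by -0.81 to -1.26. Csf1r differed by -0.11, Adgre1 by -0.13 and Lyz2 by -0.0013. Of 6 stromal markers, 5 were higher in group mean (median 0.52), with sums of 26.6 to 51.6 against 45.4 to 52.6. Acta2 was lower, by -0.81. On p45-/- array 1, Col1a1, Col1a2, Col3a1, Dcn and Acta2 read below WT array 1, by -0.70 (Acta2) to -1.31 (Dcn). Fbn1 read above it, by 0.43. No marker list held a gene below background throughout a group, 0 markers of these lists were called without the block and 1, Gp6, with it. Their part in the values below was not tested.

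No replication gene passed the test between p45-/- and WT megakaryocytes. With limma, 0 of the 30 members had an adjusted p under 0.05, where 0% of all genes were called, and 0 members had an unadjusted p under 0.05, where 3.33% of all genes did so as lower and 2.62% as higher. With the replicate number as a block, 0 members were called against 0.0275% of all genes, and 0 members reached an unadjusted p under 0.05 in that fit, where 5.96% of all genes did so as lower and 14.3% as higher. The smallest adjusted p among the members was 0.704 without the block and 0.480 with it. In these bulk cultures a smaller share of cells in S phase and less RNA per cell cannot be told apart.

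At 75th percentile scaling nearly all group means lay on 1 side. Of the 30 members, 29 were lower in the p45-/- mean and 1, Orc1, was higher, while 53.5% of all genes were lower. The median difference of the members was -0.25, with a range from -0.43 to 0.34, against -0.048 over all genes tested. All 30 members were well above background on all 6 arrays. Among the 15657 genes that were so, 58.4% were lower, with a median of -0.094. The scaling changed the members' count. With quantile normalization 15 of the 30 were lower, with a median of 0.0083, where 52.2% of all genes were lower and their median was -0.025. With median scaling all 30 were lower, and there the median of all genes had itself moved to -0.56. With normexp background correction 29 were again lower, with a median of -0.40. There 45.9% of all genes were lower and their median was 0.081. At 75th percentile scaling the groups did not overlap for 3 members, Gmnn, Mcm4 and E2f1, all lower. This is 3 of 30 where 8.43% of all genes were separated as lower, so the members' share lies near the background with all arrays, and 0 members were separated as higher, against 4.77%. The count moved with the arrays used. Without p45-/- replicate 3 it was 15 of 30, where 15.4% of all genes were separated as lower, and without WT replicate 1 it was 9 of 30, against 17.4%. Without WT replicate 3 it was 7 of 30, against 11.6%, and without replicate 1 of both groups 10 of 30, against 21.2%. Without p45-/- replicate 1, the array that stood apart, it was 4 of 30, against 11.6%, so near the background.

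Standard errors of the 30 differences ran from 0.26 to 0.41. No 95% interval reached below -1.37 (Ccne2, a 2.59-fold lower level) or above 1.08 (Orc1, 2.11-fold higher), and 0 of the 30 intervals excluded no difference. For 16 members the whole interval lay within 2-fold in either direction at 75th percentile scaling. These intervals do not cover the choice of scaling. The members' median was -0.76 with median scaling and 0.0083 with quantile normalization. The members also varied little between arrays of a group: their median SD was 0.25 within p45-/- and 0.18 within WT, against 0.56 and 0.34 over all genes tested.

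**Figure D1:**
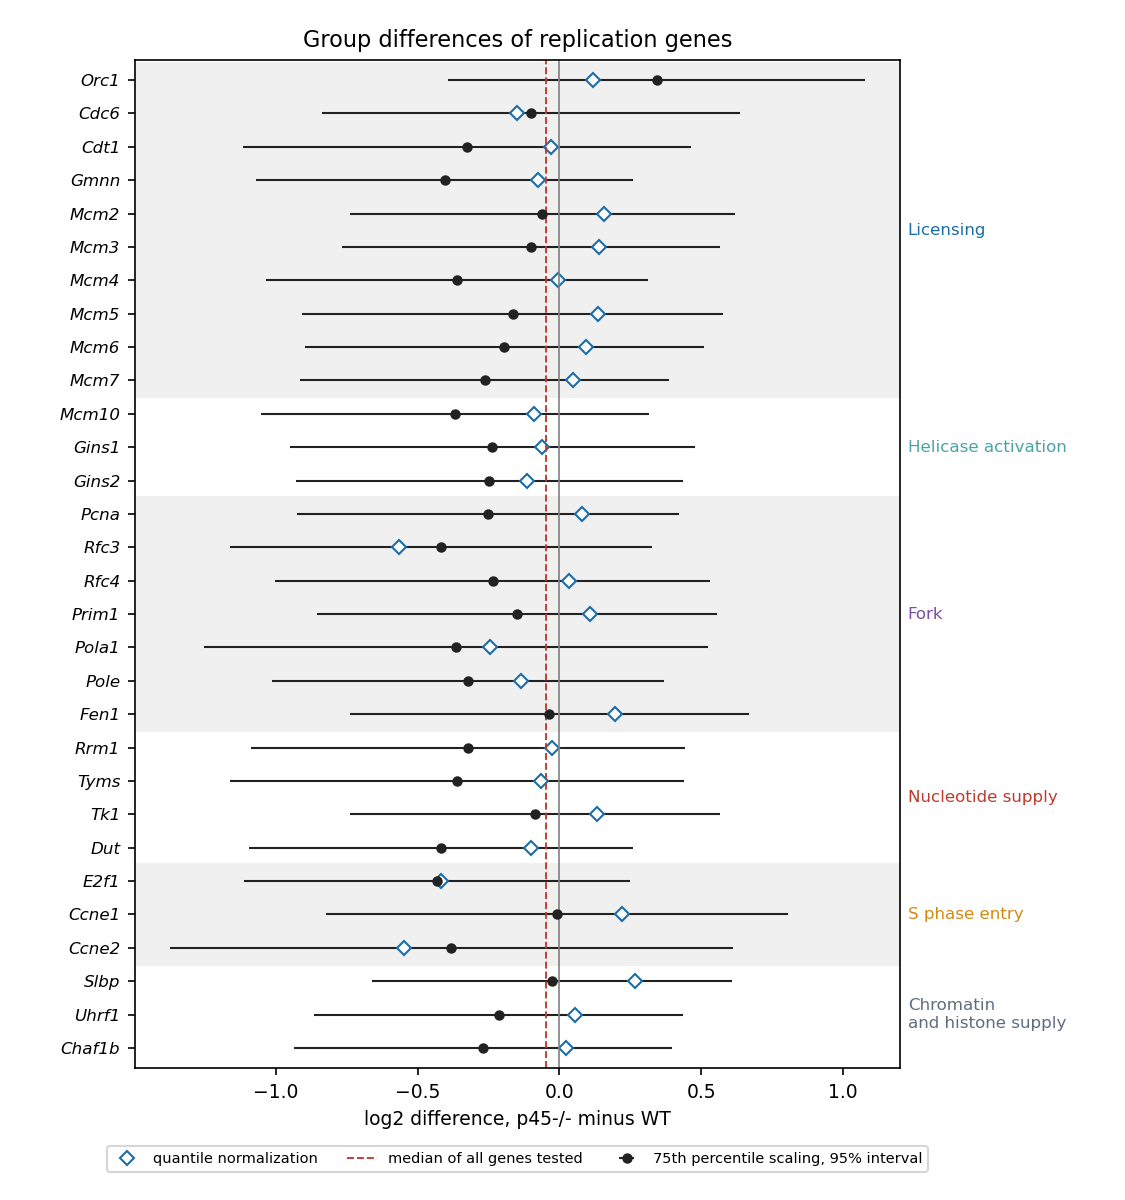
Log2 difference of each replication gene, p45-/- minus WT, with its 95% interval from limma at 75th percentile scaling (black, 3 arrays per group) and its value with quantile normalization (blue diamonds). The dashed line marks the median of all genes tested, -0.048; every black interval crosses 0, and the diamonds lie on both sides of it.

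The members' differences were unequal between the pairs of same-numbered arrays. In pair 1 the median difference of the members was -0.35 with 28 of 30 lower, in pair 2 it was -0.42 with 29 lower, and in pair 3 it was 0.033 with 13 lower. The median of all genes in the same pairs was -0.37, 0.12 and 0.064. Relative to that median the members stood at 0.024 in pair 1, -0.54 in pair 2 and -0.031 in pair 3. Pair 3 is the pair hybridised and scanned on slide 1, and pairs 1 and 2 shared slide 2. Pair 2 kept its direction under each scaling tried: 28 of 30 members were lower with quantile normalization (median -0.33), 29 with normexp background correction (median -0.46) and 30 with median scaling (median -0.91). Pair 1, which holds the array that stood apart, did not: with quantile normalization 6 of 30 members were lower there, with a median of 0.24. With normexp 27 of 30 were lower in pair 1, with a median of -0.68 against 0.064 over all genes. With median scaling 30 were lower there, with a median of -1.22 against -1.24. At 75th percentile scaling 13 of the 30 members were lower in all 3 pairs (43.3%, against 23.6% of all genes) and 0 higher in all 3, against 23.3%. With quantile normalization 2 members were lower in all 3 pairs, 6.67% against 22.2% of all genes, and 2 were higher in all 3. With median scaling 26 were lower in all 3 (86.7%, against 48.4%) and 0 higher. With normexp 11 were lower in all 3 (36.7%, against 19.4%) and 1 higher.

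**Figure D2:**
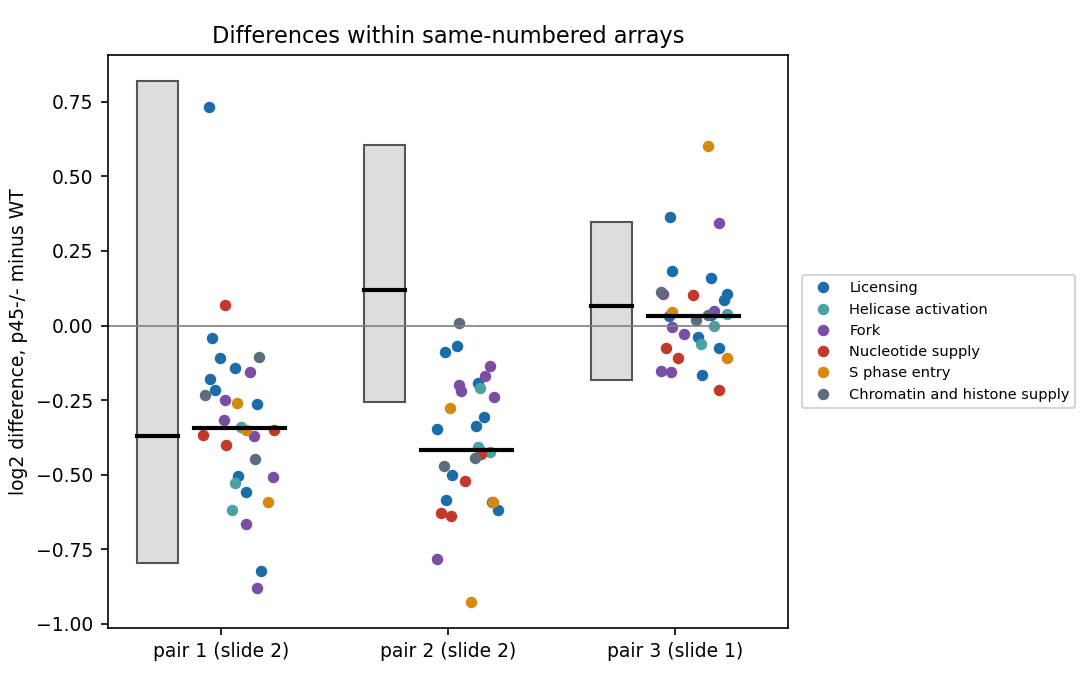
Log2 differences, p45-/- minus WT, of the 30 replication genes (points, coloured by role, with a line at their median) in each pair of same-numbered arrays; grey boxes span the quartiles of all genes tested, with a line at the median. The points lie below the median line of the grey box in pair 2, with a median of -0.42, and around that box line in pairs 1 and 3.

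The same pattern appears array by array. Relative to each gene's WT mean, the median of the members was -0.48 on p45-/- array 1, -0.24 on p45-/- array 2 and -0.036 on p45-/- array 3. On the WT arrays it was -0.11, 0.14 and -0.049. The lowest of the 6 values fell on p45-/- array 1 for 21 members and on p45-/- array 2 for 7. WT array 2 held the highest value for 17. By this median p45-/- array 3 lay inside the range of the WT arrays, and p45-/- arrays 1 and 2 lay below it. Without p45-/- replicate 1 the median difference was -0.13 with 23 of 30 lower, while the median of all genes turned to 0.069. Leaving out replicate 1 of both groups gave -0.17 with 26 lower, and 0.087 for all genes.

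**Figure D3:**
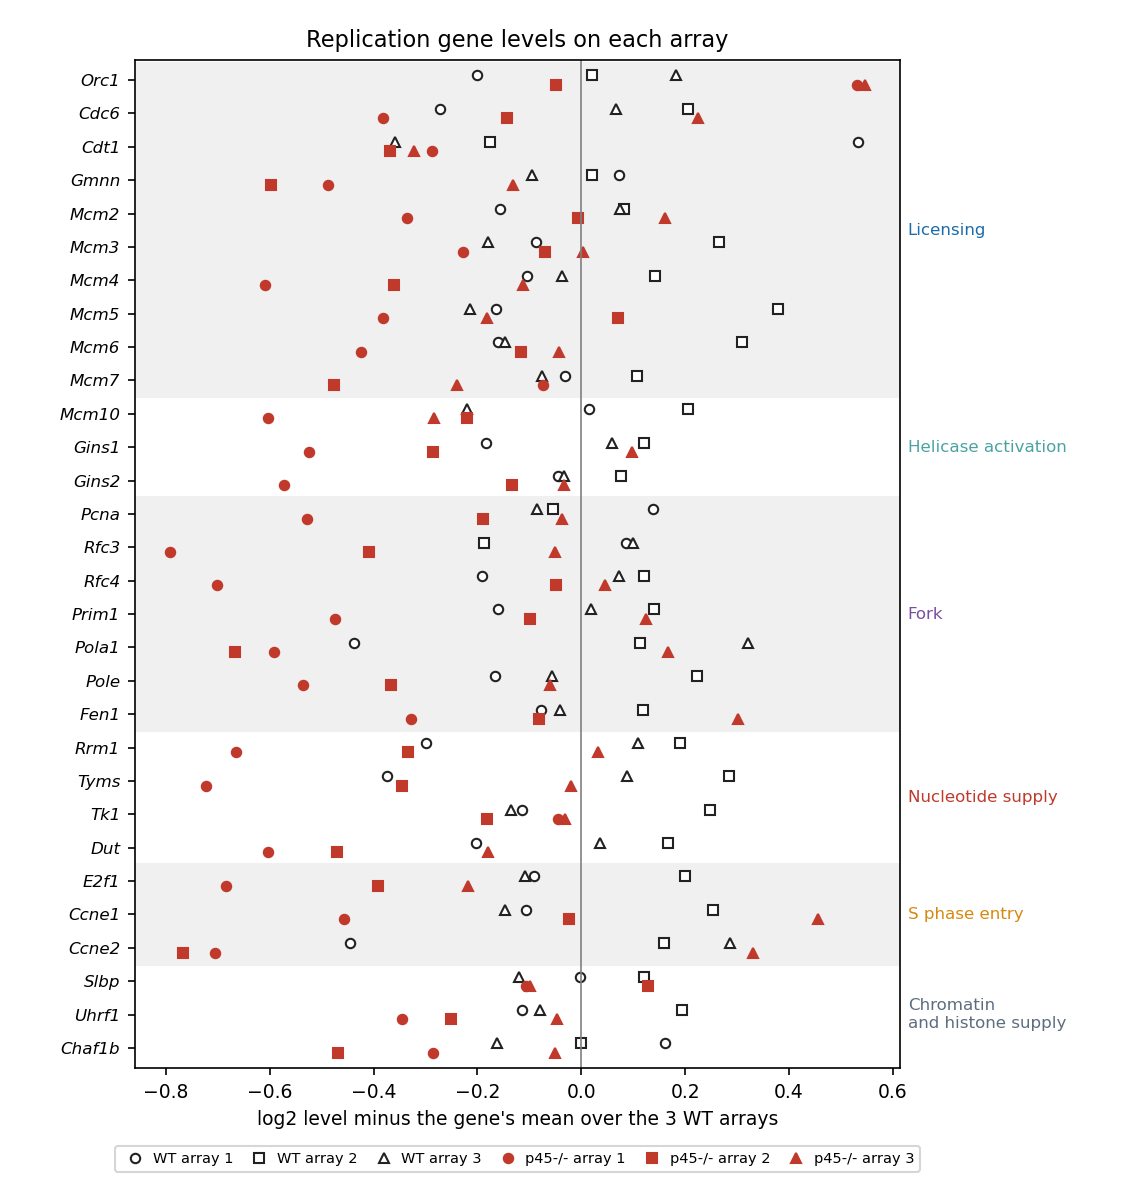
Log2 level of each replication gene on each array minus the gene's mean over the 3 WT arrays (open symbols, WT; red symbols, p45-/-; shapes give the replicate number). Red circles, p45-/- array 1, lie farthest left for 21 of the 30 genes, and red triangles, p45-/- array 3, mix with the WT symbols.

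Among the licensing genes 9 of 10 were lower in group mean, with a class median of -0.18, which was 0.070 with quantile normalization and -0.030 without WT replicate 2. Gmnn, the Cdt1 inhibitor geminin, read 4.42, 4.31 and 4.78 in p45-/- (arrays 1, 2 and 3, here and below) and 4.98, 4.93 and 4.82 in WT. Every p45-/- value lay below every WT value, with p45-/- array 3 close under WT array 3. The difference of -0.40 (SE 0.28, limma adjusted p = 0.704) gave p = 0.1 in an exact two-sided permutation test, the smallest that 3 arrays against 3 allow. Mcm4, a subunit of the helicase ring, read 4.30, 4.54 and 4.79 in p45-/- and 4.80, 5.05 and 4.87 in WT. Its groups came close to touching at p45-/- array 3 and WT array 1, with a difference of -0.36 (SE 0.28, limma adjusted p = 0.710), and of -0.0063 with quantile normalization.

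The other helicase subunits differed less than Mcm4 in group mean. The differences were -0.26 for Mcm7, -0.19 for Mcm6, -0.16 for Mcm5, -0.099 for Mcm3 and -0.060 for Mcm2, each with overlapping groups. All 5 were above 0 with quantile normalization, from 0.048 (Mcm7) to 0.16 (Mcm2). The loading factor Cdc6 differed by -0.099, and by 0.024 at its other, dimmer probe.

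Cdt1 and Orc1 ran apart from the rest, and both are described after their values were seen. Cdt1, the licensing factor that geminin blocks, read 3.98, 3.90 and 3.95 in p45-/- and 4.80, 4.09 and 3.91 in WT. Its difference of -0.33 (SE 0.33, limma adjusted p = 0.749) goes with WT array 1, which read higher than the other 5 arrays. Orc1, the largest subunit of the origin recognition complex, read -1.41, -1.99 and -1.40 in p45-/- and -2.14, -1.92 and -1.76 in WT. It was higher on p45-/- arrays 1 and 3 than on any WT array, but p45-/- array 2 lay between WT arrays 1 and 2. Its mean was higher by 0.34 (SE 0.31, limma adjusted p = 0.727), with a 95% interval of -0.39 to 1.08, and the value was -0.17 with median scaling. Over the 6 arrays, which share their scaling and pairs, the median correlation of a member with the others was -0.26 for Orc1 and -0.0098 for Cdt1, and it reached 0.857 for Tyms.

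Promoters are shown because E2F factors are known activators of many of these genes and E2f1 is itself a member. RefSeq promoter windows of GRCm38.p6, from 250 bases before to 50 after a gene's start, were held for 25 of the 31 members. Ccne2, Gins1, Gins2, Gmnn, Mcm4 and Pole had no entry. The motif TTTNNCGC, with each N being C or G, was searched on both strands, where matches can overlap. It was found in 10 of the 25 members (40.0%), against 2.6% of 27025 genes with a window. These were the licensing genes Orc1, Cdc6, Cdt1, Mcm3, Mcm5, Mcm6 and Mcm7, with Pola1, Rfc3 and Uhrf1. One stretch of 30 bases is shown for each of the 8 members with a match centred before the start, in the gene's direction, with the match in capitals (a match on the opposite strand reads GCG first):
Orc1, chr4:108579416-108579445, plus strand: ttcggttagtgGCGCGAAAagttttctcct
Cdc6, chr11:98908002-98908031, plus strand: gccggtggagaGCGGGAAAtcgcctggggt
Mcm5, chr8:75109345-75109374, plus strand: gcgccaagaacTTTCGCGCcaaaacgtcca
Mcm6, chr1:128359734-128359763, minus strand: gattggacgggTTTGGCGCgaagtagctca
Mcm7, chr5:138172030-138172059, minus strand: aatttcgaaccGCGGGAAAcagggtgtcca
Pola1, chrX:93632275-93632304, minus strand: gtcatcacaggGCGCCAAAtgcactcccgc
Rfc3, chr5:151651200-151651229, minus strand: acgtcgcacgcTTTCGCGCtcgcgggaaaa
Uhrf1, chr17:56304117-56304146, plus strand: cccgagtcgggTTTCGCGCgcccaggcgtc

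Members with and without these letters had like differences in the median. Orc1, the member with the higher mean, and Rfc3, among the lowest at -0.42, both hold a match near the start. The median difference was -0.20 over the 10 members with a match and -0.24 over the 14 tested members whose window had none. The NF-E2 motif was in 0 of the 25 windows and in 0.329% of all genes, which says only that these letters are not in these windows. The CCAAT box was in 15 of the 25 (60.0%), against 41.1% of genes.

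**Figure D4:**
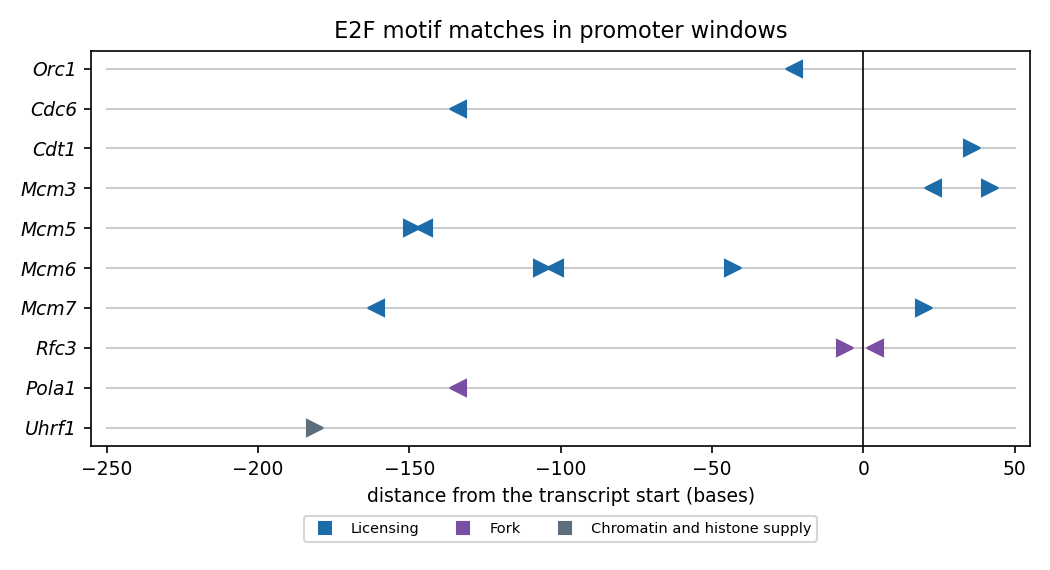
Positions of E2F motif matches (triangles, pointing right for the gene's strand and left for the opposite one) in the promoter windows of the 10 replication genes that hold one, in bases from the transcript start. The 16 matches lie between -181 and 42, and 3 of them centre within the 100 bases before the start.

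All 3 genes of helicase activation had the lower mean in p45-/-, with a class median of -0.25, and of -0.089 with quantile normalization. Mcm10, which helps the loaded helicase to open DNA, read 2.69, 3.08 and 3.01 in p45-/- and 3.31, 3.50 and 3.08 in WT. The groups met at WT array 3, and the difference was -0.37 (SE 0.29, limma adjusted p = 0.709). Gins2 read 0.85, 1.29 and 1.39 in p45-/- and 1.38, 1.50 and 1.39 in WT, a difference of -0.25 (SE 0.28, limma adjusted p = 0.777) with p45-/- array 1 the lowest. Its partner in the GINS complex, Gins1, differed by -0.24, and by -0.50 at its dimmer probe.

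At the fork all 7 genes were lower in group mean, with a class median of -0.25 that was 0.034 with quantile normalization. Rfc3, a subunit of the clamp loader that places PCNA on DNA, read -1.16, -0.78 and -0.42 in p45-/- and -0.28, -0.56 and -0.27 in WT. Its groups overlapped through p45-/- array 3 alone, which lay above WT array 2. The difference was -0.42 (SE 0.31, limma adjusted p = 0.705), with -0.57 after quantile normalization and -0.15 after normexp. Pole, the catalytic subunit of the leading-strand polymerase, read 1.40, 1.57 and 1.88 in p45-/- and 1.77, 2.16 and 1.88 in WT, with a difference of -0.32 (SE 0.29, limma adjusted p = 0.727).

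The remaining fork genes had overlapping groups. Pola1, the catalytic subunit of the polymerase that starts new strands, differed by -0.36, and its primase partner Prim1 by -0.15. Pcna, the sliding clamp, differed by -0.25 and the clamp loader gene Rfc4 by -0.24. Fen1, the nuclease that trims Okazaki fragments, differed by -0.035 and was higher in p45-/- in pair 3, by 0.34. With quantile normalization Pcna, Rfc4, Prim1 and Fen1 were above 0 and Pola1 was at -0.24.

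Nucleotide supply was represented by 4 tested genes, all lower in group mean, with a class median of -0.34, and of -0.046 with quantile normalization. Dut, the dUTPase that keeps uracil out of DNA, read 3.97, 4.11 and 4.40 in p45-/- and 4.37, 4.74 and 4.61 in WT. The groups overlapped by 0.024, between p45-/- array 3 and WT array 1, and the difference was -0.42 (SE 0.28, limma adjusted p = 0.704). Its dimmer probe gave -0.37, and both probes were lower in all 3 pairs. Tyms, thymidylate synthase, read 3.06, 3.44 and 3.77 in p45-/- and 3.41, 4.07 and 3.87 in WT, with a difference of -0.36 (SE 0.33, limma adjusted p = 0.731) and of -0.31 at its dimmer probe. Rrm1, the large subunit of ribonucleotide reductase, differed by -0.32. Tk1, thymidine kinase of the salvage route, differed by -0.086 and was lower in 1 of 3 pairs.

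The 3 genes of S phase entry were lower in group mean to unequal degrees, with a class median of -0.38. That median was -0.42 with quantile normalization, -0.12 with normexp and -0.19 without p45-/- replicate 2. E2f1, an activating E2F factor, read -0.14, 0.15 and 0.32 in p45-/- and 0.45, 0.74 and 0.43 in WT. The groups did not overlap, and the difference of -0.43 (SE 0.28, limma adjusted p = 0.704) was the lowest of the 30. An exact two-sided permutation test gave p = 0.1. With quantile normalization the difference was -0.42, and at the dimmer E2f1 probe it was -0.36, nearly all of it from pair 2 (-1.03).

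The cyclin E genes differed from each other. Ccne1 read 2.00, 2.44 and 2.92 in p45-/- and 2.36, 2.71 and 2.32 in WT. These p45-/- arrays spanned both sides of the WT arrays, and the means lay -0.0085 apart (SE 0.34, limma adjusted p = 0.993), with a 95% interval of -0.82 to 0.81. Its dimmer probe was higher in all 3 pairs, by 0.16, 0.42 and 1.05, a mean of 0.54. Ccne2 read -1.45, -1.51 and -0.41 in p45-/- and -1.19, -0.59 and -0.46 in WT. Its difference of -0.38 (SE 0.41, limma adjusted p = 0.764) came with the largest standard error of the members, and its 2 probes gave -0.38 and -0.39. With normexp it was -0.091. The difference between the cyclin genes was not tested.

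In chromatin and histone supply all 3 genes were lower in group mean, with a class median of -0.21 that was 0.055 with quantile normalization. Chaf1b, a subunit of the assembly factor that places histones behind the fork, read 3.17, 2.99 and 3.41 in p45-/- and 3.62, 3.46 and 3.29 in WT. The difference was -0.27 (SE 0.28, limma adjusted p = 0.755), with p45-/- array 3 above WT array 3. Uhrf1, which guides maintenance methylation after replication, read 2.64, 2.73 and 2.94 in p45-/- and 2.87, 3.18 and 2.90 in WT, a difference of -0.21 (SE 0.27, limma adjusted p = 0.794). Slbp, which binds histone mRNA, differed by -0.026, and its pair differences were -0.10, 0.0079 and 0.020.

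Under 22 alternative settings, 1 of which allows no test, 0 members were called, and 11 members kept a negative difference in all of them. These were Gmnn, Mcm4, Mcm10, Gins2, Rfc3, Pola1, Pole, Rrm1, Tyms, Dut and E2f1. Some kept the sign only narrowly: the highest value was -0.00095 for Gins2, -0.0044 for Pole and -0.0063 for Mcm4. The settings reuse the same arrays, and the share of all genes that stayed negative throughout was not computed. Of the 8 members read by more than 1 probe, the probes differed in sign for 2, Ccne1 and Cdc6.

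A second list held 78 other genes of replication and S phase, of which 74 were tested. Of these, 57 were lower in group mean (77.0%, against 53.5% of all genes) and 17 higher, with a median of -0.23. Without p45-/- replicate 1 the count was 47 and the median -0.069. None, 0 of 74, passed the limma test with a smallest adjusted p of 0.704. At an unadjusted p under 0.05 the count was also 0 without the replicate block. With the block Timeless, Top1 and Samhd1, 3 of 74, reached it as lower, where 5.96% of all genes did, and 0 were called. Their pair medians were -0.44, -0.26 and 0.024 in pairs 1, 2 and 3, and with quantile normalization 50 were lower with a median of -0.097. The groups did not overlap for 11 lower genes (14.9%, against 8.43% of all genes) and 1 higher gene (1.35%, against 4.77%).

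By role, the other fork genes leaned lower most often, 26 of 27 with a median of -0.29. Dscc1, of the alternative clamp loader that helps cohesion, differed by -0.66 (SE 0.30), and Timeless, of the fork protection complex, by -0.85 (SE 0.41). Both were lower in all 3 pairs with groups that did not overlap. The other licensing and firing genes were lower in 9 of 15, with a median of -0.074. The Mcm-binding gene Mcmbp differed by -0.43 (SE 0.30). Recql4, a helicase active at origins, differed by 0.38 (SE 0.26) and read -0.66, -0.47 and -0.36 in p45-/- and -0.80, -0.91 and -0.91 in WT. It was the 1 gene of this list with all p45-/- arrays above all WT arrays.

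In nucleotide supply 5 of 9 other genes were lower, with a median of -0.29. Dck, deoxycytidine kinase, differed by -0.63 (SE 0.31) with separate groups. Samhd1, which breaks down deoxynucleotides and is also an interferon-induced gene, differed by -1.02 (SE 0.53), and WT array 1 held its highest value at 3.43. Among the S phase entry genes 10 of 15 were lower, with a median of -0.22. Cdk2, the kinase partner of cyclin E, differed by -0.76 (SE 0.37) with separate groups. Cdc25a, the phosphatase that activates it, differed by 0.84 (SE 0.50), by 1.92, 0.34 and 0.27 in the 3 pairs. Of 8 other chromatin genes 7 were lower with a median of -0.29, among them the maintenance methyltransferase gene Dnmt1 at -0.42 (SE 0.28) and the histone chaperone gene Asf1b at -0.42 (SE 0.32).

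Genes of G2 and M phase, listed for comparison, were lower in group mean for 29 of 29 tested, with a median of -0.35. Their pair medians were -0.32, -0.64 and -0.085, and 21 of 29 were lower in pair 3, where 13 of 30 replication genes were. With quantile normalization 22 of 29 were lower with a median of -0.26. The difference between the lists was not tested, 0 of these genes passed over all genes tested in limma, and 0 had an unadjusted p under 0.05.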

How the data were processed

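RNA (500 ng, amplified, Cy3) from 3 p45-/- and 3 WT cultures was hybridised to 1-colour Agilent arrays, per the labels' protocols. The authors' deposited intensity is background-subtracted and detrended per array, linear, extracted with Agilent Feature Extraction 10.7.3.1 per the file headers (10.1 per the submitters' processing notes). The deposited value table holds the same intensities within 0.497%, linear and uncentred, with column medians of 20.9 to 42.0 and 1 channel, so no direction is unknown.

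From these, log2 values were taken, flagged spots (32 to 80 per array) set to missing, spots of a probe averaged and each array's 75th percentile subtracted. No spot was saturated. A probe was kept where every array of either group read it well above background (23957 of 41174). Accessions were named through RefSeq (GRCm38.p6, 26690 probes), and the brightest probe stood for a gene. Groups were compared with limma 3.58.1 in R 4.3.3, unblocked, with Benjamini-Hochberg adjustment over all genes, and scripts were tested on simulated data. P-values measure the spread between these cultures.

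Same-numbered arrays' deviations correlated at 0.647, 0.589 and 0.270, so the numbers were taken as pairs, from the data. P45-/- array 3 correlated more with WT array 2 (0.616). Slide and scan coincide. Members, lists and rules were chosen with earlier results of these data known. The naming rule was all members by symbol, with array values for the 2 smallest unadjusted p per class, all S phase entry genes and non-overlapping members, and the 2 smallest p per class of the second list. Hbb-b1, Ahsp, Ttr, Rpa1, Rrm2b, E2f4, Skp2 and Prc1 were not among the genes tested. The NF-E2 motif was searched by its consensus letters on both strands. Normexp took median spot and background signals, with an offset of 50.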

Additional observations from a re-analysis of the deposited data

How the results depend on the processing

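With 3 arrays per group an exact permutation test cannot go below 0.1, and the number of arrays limits every value. No member was called by limma under any alternative that allows a test. Calls over all genes moved from 0 to 5 with the replicate block, which changed no member's call, to 10 with median scaling and to 504 with array weights. Leaving out replicates gave 0 to 18 calls over all genes (18 without replicate 1 of both groups, 1 without WT replicate 1), 4 to 15 members with separate lower groups, where 11% to 21.2% of all genes were separate, and 0 to 1 with separate higher groups, against 5.75% to 34.7%. In the same fits the class medians ranged from -0.27 to -0.030 for licensing, -0.40 to -0.093 for helicase activation, -0.38 to -0.099 for the fork, -0.52 to -0.17 for nucleotide supply, -0.54 to -0.19 for S phase entry and -0.30 to -0.12 for chromatin, and the second list had 46 to 61 lower. The causes of these shifts were not tested.

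Some alternatives were added after seeing the data, each the first version run of a step that was then replaced. With the percentile over spots, replaced by the percentile over probes, the replicate block gave 1 call in place of 5, and Ccne1 turned to 0.0040 with and without the block. Array weights by REML, which did not converge and were replaced by the gene-by-gene method, gave 1167 calls over all genes and 19 members lower. They turned licensing to 0.014, Cdc6 to 0.0087, Mcm2 to 0.022, Mcm3 to 0.097, Mcm5 to 0.048, Mcm6 to 0.019, Prim1 to 0.0045, Fen1 to 0.18, Tk1 to 0.0058, Ccne1 to 0.36 and Slbp to 0.069. So the count of calls with array weights depended on the method of weighting.

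Quantile normalization left 15 members lower (median 0.0083) and 1 with separate lower groups, against 8.01% of all genes, with class medians of 0.070 for licensing, 0.034 for the fork, -0.046 for nucleotide supply and 0.055 for chromatin. Differences there were positive for Mcm2 (0.16), Mcm3 (0.14), Mcm5 (0.14), Mcm6 (0.093), Mcm7 (0.048), Pcna (0.080), Rfc4 (0.034), Prim1 (0.11), Fen1 (0.20), Tk1 (0.13), Ccne1 (0.22), Slbp (0.27), Uhrf1 (0.055) and Chaf1b (0.023).

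Within slide 1, which holds 1 array per group and has no test, 13 members were lower (median 0.033), with class medians of 0.061 for licensing, -0.0044 for the fork, -0.092 for nucleotide supply, 0.045 for S phase entry and 0.034 for chromatin. The second list had 33 lower and a median of 0.024. Positive there were Cdc6 (0.16), Cdt1 (0.036), Mcm2 (0.087), Mcm3 (0.18), Mcm5 (0.032), Mcm6 (0.10), Gins1 (0.038), Pcna (0.047), Prim1 (0.11), Fen1 (0.34), Tk1 (0.10), Ccne1 (0.60), Ccne2 (0.045), Slbp (0.020), Uhrf1 (0.034) and Chaf1b (0.11).

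Median scaling moved the medians to -0.76 for the members, -0.69 for licensing, -0.76 for helicase activation, -0.76 for the fork, -0.85 for nucleotide supply, -0.89 for S phase entry, -0.73 for chromatin, -0.74 for the second list and -0.86 for G2 and M phase, and Orc1 to -0.17. Normexp moved the members' median to -0.40, with licensing at -0.39, helicase activation at -0.37, the fork at -0.39, nucleotide supply at -0.53, chromatin at -0.41 and S phase entry at -0.12, and 4 members had separate lower groups, against 6.08% of all genes. The mean over probes turned Ccne1 to 0.27. Array weights, gene by gene, turned Mcm2 (9.5e-05), Mcm3 (0.017), Mcm5 (0.00011), Fen1 (0.091), Ccne1 (0.23) and Slbp (0.067). Over the fits that left out replicates, differences changed sign for Cdc6 (-0.26 to 0.041), Mcm2 (-0.17 to 0.078), Mcm3 (-0.19 to 0.035), Mcm5 (-0.28 to 0.025), Prim1 (-0.29 to 0.013), Fen1 (-0.20 to 0.11, 0.072 without replicate 1 of both groups), Tk1 (-0.15 to 0.038, -0.16 without replicate 1 of both groups), Ccne1 (-0.24 to 0.22) and Slbp (-0.10 to 0.035, 0.014 without replicate 1 of both groups).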
